A study of Mus musculus with 6 samples.

Results

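The METTL3 knockout was compared with wild type in mouse embryonic stem cells, and the comparison rests on 4 of the 6 RNA-seq libraries of the study. These are both libraries of unmodified E14TG2a cells (WT) and both libraries of a METTL3 knockout line (KO), chosen by their genotype labels. E14TG2a is a male embryonic stem cell line. All cells were kept in N2B27, a defined serum-free medium, and the KO line was made by disrupting the endogenous Mettl3 gene with CRISPR/Cas9. The other 2 libraries carry METTL3 D395A, an amino acid change in the methyltransferase's active site made by CRISPR/Cas9, and entered the shared estimate of spread, 1 closing comparison and the levels given for Sall2. The labels name 1 knockout line and do not say whether the libraries of a group are separate cultures or clones, so the genotype and the history of the line cannot be told apart. Of 24984 gene symbols counted, 15663 had enough reads to be tested.

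METTL3 and METTL14 form the heterodimer that writes N6-methyladenosine (m6A) on nascent messenger RNA, and WTAP, VIRMA, ZC3H13, RBM15 and CBLL1 hold and place the enzyme. The mark lies mostly near stop codons and in unusually long internal exons, in short sequence contexts of which GGACT is the most common. YTH-domain proteins read it, and in the cytoplasm YTHDF proteins speed the decay of marked messengers. In mouse embryonic stem cells m6A is known to limit the lifetime of transcripts that include pluripotency factors. The libraries here report RNA abundance per gene, not m6A itself.

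Gene counts totalled 40476809 and 36136543 in the WT libraries and 35851584 and 35613626 in the KO libraries. Levels below are counts per 1000000 (CPM) after TMM scaling, given for replicates 1 and 2 in that order or as mean ± SD (n = 2 libraries), and differences are log2 fold changes (KO minus WT) ± SE. "Changed", "rose" and "fell" refer to an adjusted p below 0.05 in the edgeR quasi-likelihood test over all tested genes. The KO libraries differed from each other more than the WT libraries did, and the chi-square of their counts divided by its degrees of freedom was 6.48 in KO and 3.19 in WT. Reads that the counting program assigned to no gene feature made up 30.2% of each WT library. Their share was 31.1% in KO replicate 1 and 22.3% in KO replicate 2. In KO replicate 1, 53 genes stood at 2 CPM or more and at least 4-fold above KO replicate 2. Of these, 47 share exon sequence with a gene on the opposite strand, against 30.8% of all tested genes. Of the 53, 46 were called changed, against 66.2% of all tested genes. In the other direction 10 genes stood out, 4 of them called, and no gene did so between the WT libraries. Markers of embryonic stem cells (7 genes) summed to 3830 and 3890 CPM in WT and 4450 and 4430 CPM in KO, with 3 of the 7 higher and 2 lower. In the wider naive pluripotency list 7 of 22 rose (31.8%) and 10 fell (45.5%). Over all tested genes 33.6% rose and 32.6% fell. Markers of fibroblasts or feeders (7 genes, 2 of them at 0 in all 4 libraries) summed to 5.95 and 5.95 CPM in WT and 7.39 and 7.35 CPM in KO. Neural markers summed to 56.2 and 53.8 CPM against 20.7 and 22.2 CPM, extraembryonic endoderm to 11.2 and 10.7 against 5.77 and 7.06, trophoblast to at most 19.9 against 15.2 and 15.7, and mesoderm to 8.92 and 5.54 against 2.30 and 2.30. Their part in the results below was not tested. In bulk RNA, fewer cells of a type and less RNA per cell cannot be told apart.

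The targeted gene was lower in both KO libraries. Mettl3 stood at 28.5 and 31.6 CPM in WT and 7.82 and 6.17 CPM in KO (-2.10 ± 0.11, adjusted p = 6.5e-09), and reads were still counted to the gene in KO. Which exons they cover was not analysed here. The deposited counts are per gene, and part of the Mettl3 exon sequence overlaps Tox4 on the opposite strand. The part of Tox4 reads in the remaining counts was not tested. The genes beside it on chromosome 14 were also examined. Sall2, a zinc finger factor gene that lies 6044 bases from Mettl3 (GRCm38, chromosome 14, 52311172 to 52328762, minus strand), rose from 5.95 and 5.57 CPM to 26.4 and 26.7 CPM (2.20 ± 0.09, adjusted p = 5.2e-10). On the other side, Tox4, whose exons overlap those of Mettl3, stood at 110.7 and 107.7 CPM in WT and 101.5 and 105.5 CPM in KO (adjusted p = 0.31). Rab2b, a small GTPase gene, fell slightly (-0.36 ± 0.09, adjusted p = 0.0025). Chd8, a chromatin remodeller gene 37061 bases away, rose from 177 and 164 CPM to 281 and 278 CPM (0.71 ± 0.07, adjusted p = 1.5e-06). Within 300000 bases of Mettl3, Sall2 had the largest rise among the 11 tested genes, Mettl3 included. Sall2 was also high in the D395A line, at 43.5 and 46.9 CPM. Rpgrip1, a ciliary gene in the same window, did not pass (1.00 ± 0.50, adjusted p = 0.091), with 17.7 CPM in KO replicate 1 and 3.23 CPM in KO replicate 2. It shares exon sequence with Supt16 on the opposite strand and is among the 53 genes that stood out in KO replicate 1. Without KO replicate 1 its log2 fold change was -0.69, and without KO replicate 2 it was 1.76.

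**Figure D1:**
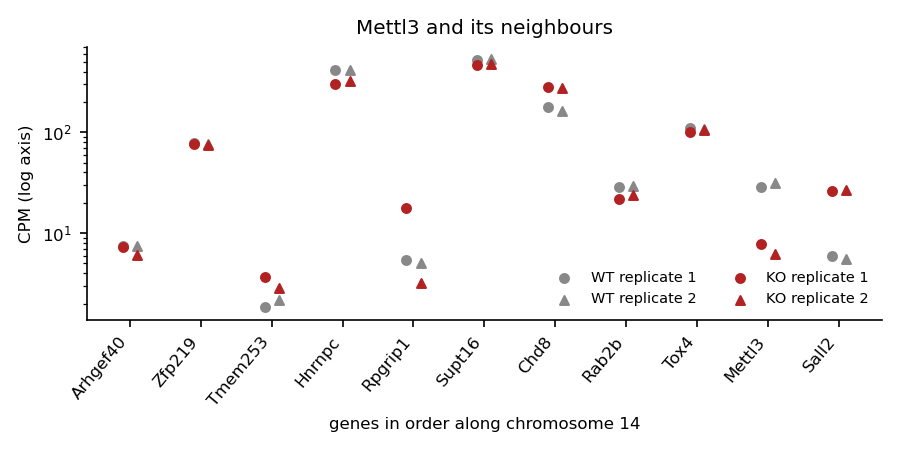
CPM on a log axis of Mettl3 and the tested genes within 300000 bases of it, in order along chromosome 14, in each WT (grey) and KO (red) library, with circles for replicate 1 and triangles for replicate 2. Mettl3 is lower and Sall2 higher in both KO libraries, and Rpgrip1 splits the KO libraries.

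The partners of METTL3 moved in both directions. Mettl14, the RNA-binding partner in the catalytic dimer, fell from 32.0 and 32.5 CPM to 19.3 and 20.8 CPM (-0.69 ± 0.09). The scaffold genes rose: Wtap from 95.3 and 95.4 CPM to 249 and 258 CPM (1.41 ± 0.06), and Virma, another scaffold, from 97.1 and 95.0 CPM to 185 and 192 CPM (0.97 ± 0.06, adjusted p = 3.6e-08). Rbm15 and Rbm15b, adaptors that recruit the complex to RNA, rose by 0.69 ± 0.06 and 0.53 ± 0.07. Cbll1 rose by 0.25 ± 0.09 (adjusted p = 0.021), a call lost without KO replicate 2 (0.14, adjusted p = 0.20), without WT replicate 1 (adjusted p = 0.097) and without WT replicate 2 (adjusted p = 0.12). Zc3h13 stood at 85.8 and 84.0 CPM in WT and 89.0 and 86.1 CPM in KO (adjusted p = 0.55). Of the 8 subunit genes tested, 5 were higher and 2 lower, Mettl3 included. Across all tested genes 66.2% changed, 33.6% higher and 32.6% lower, and these shares are the background for every count of KO against WT below. All 5 YTH-domain reader genes were higher in both KO libraries: Ythdc1, the nuclear reader, from 99.7 and 102 CPM to 184 and 192 CPM (0.90 ± 0.07), and Ythdf1, Ythdf2, Ythdf3 and Ythdc2 by 0.79, 1.30, 0.55 and 0.40. By contrast, Igf2bp1, which stabilises bound transcripts, fell from 1250 and 1225 CPM to 739 and 793 CPM (-0.69 ± 0.08), and the demethylase gene Alkbh5 fell by 1.10. Both of these lie on chromosome 11. Fto, the other demethylase gene, stood at 111 ± 2.87 CPM and 114 ± 4.37 CPM (adjusted p = 0.70). Other genes of m6A-binding proteins, Igf2bp3, Hnrnpa2b1, Hnrnpc and Fmr1, fell by 0.33, 0.30, 0.41 and 0.32. Igf2bp2 and Prrc2a did not pass (adjusted p of 0.65 and 0.59). Of the 14 eraser and reader genes tested, 5 were higher and 6 lower (median -0.04). In a list of 26 tested methyltransferases for other RNA marks, 6 rose and 14 fell (median -0.18). Trmt61a, which methylates transfer RNA, fell from 26.8 and 25.2 CPM to 10.5 and 11.3 CPM, and Mettl6, a transfer RNA cytosine methyltransferase, rose by 0.86 ± 0.07.

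Over all genes, 10368 of 15663 changed, 5263 higher and 5105 lower, with a median log2 fold change of 0.01. At least 2-fold changes were called for 2142 higher genes (13.7% of those tested) and 1667 lower genes (10.6%). The differences were not spread evenly over the chromosomes. The median log2 fold change was -0.48 for the 812 tested genes of chromosome 8, of which 152 rose and 450 fell, and -0.42 for the 1302 of chromosome 11, of which 239 rose and 711 fell. Medians of the other autosomes and the X chromosome lay between -0.12 and 0.17. Each KO library taken alone gave the same picture, with -0.42 and -0.41 on chromosome 8 and -0.39 and -0.37 on chromosome 11 (on log2 of CPM + 0.5). Outside chromosomes 8 and 11, 4872 of 13549 genes rose (36.0%) and 3944 fell (29.1%). Whether the copy number of these chromosomes differed between the lines was not tested. Counts of gene groups below are therefore also given without members on these 2 chromosomes where that matters. For single genes the chromosome is named only in some cases, so a gene given without it may also lie on chromosome 8 or 11.

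**Figure D2:**
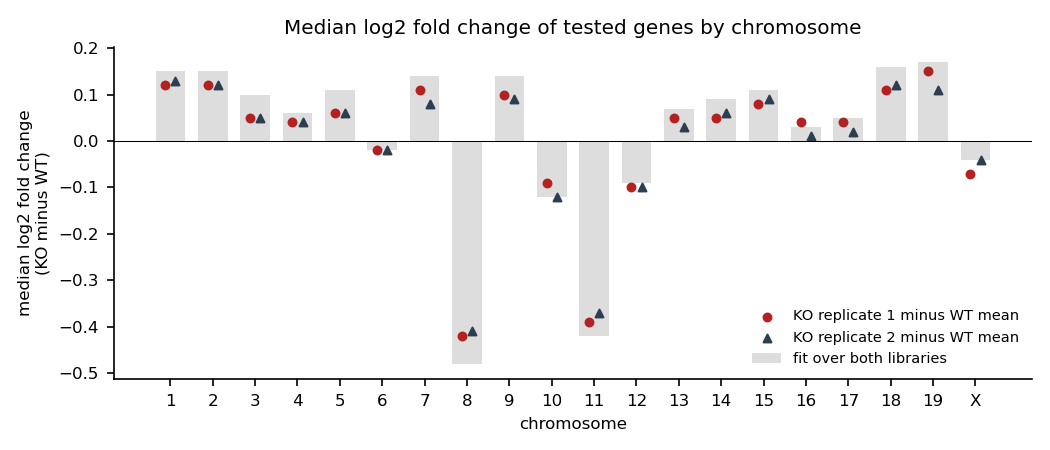
Median log2 fold change (KO minus WT) of tested genes on each autosome and the X chromosome, with bars for the fit over both libraries and points for each KO library against the WT mean on log2 of CPM + 0.5. Chromosomes 8 and 11 lie at -0.48 and -0.42, and the others between -0.12 and 0.17.

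Genes of the Y chromosome did not move together. Kdm5d, a histone H3 lysine demethylase gene, rose from 5.43 and 6.70 CPM to 47.7 and 50.5 CPM (3.02 ± 0.11, adjusted p = 2.7e-10). Usp9y, a deubiquitinase gene, rose from 0.541 and 0.854 CPM to 25.2 and 23.5 CPM (5.13 ± 0.17), and Uba1y, a ubiquitin-activating enzyme gene, from 25.5 and 25.5 CPM to 78.7 and 80.2 CPM (1.64 ± 0.07). Eif2s3y, a translation initiation factor gene, fell from 63.0 and 67.2 CPM to 45.0 and 42.6 CPM (-0.57 ± 0.07), and Uty stood at 30.6 and 29.8 CPM against 31.3 and 30.2 CPM (adjusted p = 0.82). Of 8 tested Y-linked genes, 5 rose and 1 fell. Except for Usp9y, these genes were chosen after their values were seen.

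Because m6A is placed by exon layout, genes were grouped by the longest internal exon of a coding transcript (14400 coding genes, GENCODE M21). For each gene this was the annotated transcript with the longest coding sequence. Genes with a long internal exon were higher in KO more often than lower. Of 891 genes with an internal exon over 1000 bases, 427 rose (47.9%) and 211 fell (23.7%), with a median of 0.25. Of 2002 genes with one of 400 to 1000 bases, 841 rose (42.0%) and 536 fell (26.8%), with a median of 0.18. Where the longest internal exon had 200 to 400 bases the median was -0.04 (4967 genes), and under 200 bases it was -0.07 (5363 genes, 30.2% higher and 37.5% lower). Genes with no internal exon, which have at most a first and a last one, had a median of 0.31, with 480 of 1177 higher (40.8%) and 256 lower (21.8%). Over all coding genes the median was 0.02. These medians are descriptions, and the difference between classes was not tested.

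The order of the 4 classes with an internal exon held in each KO library alone, at 0.22 and 0.22 for exons over 1000 bases against -0.07 and -0.06 for exons under 200 bases. The class with no internal exon stood at 0.19 and 0.2 there, below that over 1000 bases, whereas it stood above in the fit. Most of the order of the 4 classes also held where the transcript length was matched. Among transcripts of 3000 to 4500 bases the medians were -0.04 under 200 bases, -0.03 at 200 to 400, 0.20 at 400 to 1000 and 0.22 over 1000, and among those of 4500 to 7000 bases they were 0.00, 0.01, 0.19 and 0.30. Above 7000 bases they were -0.06, 0.14, 0.12 and 0.22. Without chromosomes 8 and 11 the 4 classes stood at -0.01, 0.03, 0.23 and 0.30, so that the 200 to 400 class changed sign. Classed by the longest exon of any kind, terminal exons included, the medians were -0.24, -0.18, -0.02 and 0.08. The number of GGACT letters in the transcript went the same way, from a median of -0.06 in the 1193 genes with none to 0.27 in the 313 genes with more than 12, and it increases with transcript length. Of the 10 genes of the long-exon class with the highest WT level, 3 rose, 5 fell and 2 did not pass. Dst, a cytoskeletal linker gene with an internal exon of 5292 bases, rose from 740 and 769 CPM to 1152 and 1025 CPM (0.53 ± 0.08), and Akap12, a scaffold gene with one of 4798 bases, rose by 0.33 ± 0.07. Tet1, a 5-methylcytosine oxidase gene with one of 2203 bases, fell from 1256 and 1305 CPM to 951 and 978 CPM (-0.41 ± 0.09). Dync1h1, the dynein heavy chain gene, fell by 0.59 ± 0.08. These 4 genes were taken from the 10, after their values were seen.

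**Figure D3:**
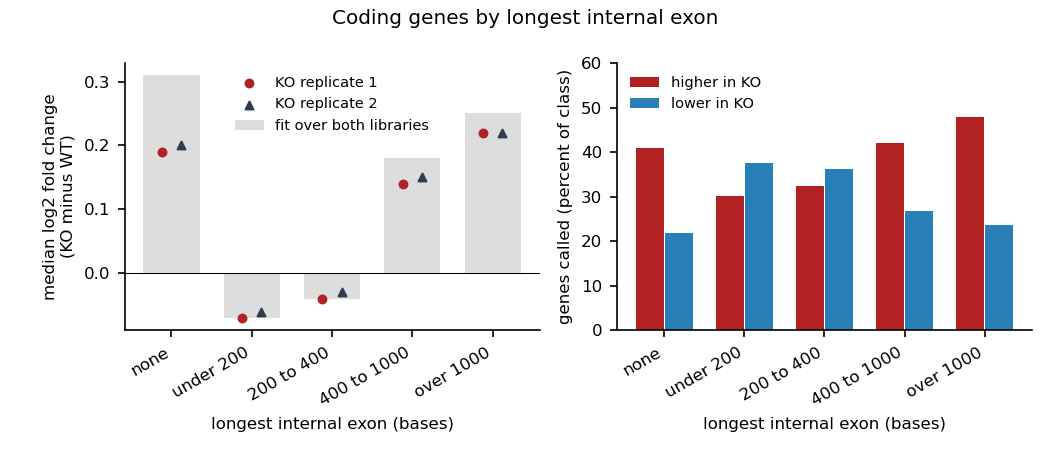
Coding genes by their longest internal exon: at left the median log2 fold change (bars for the fit, points for each KO library against the WT mean on log2 of CPM + 0.5), at right the percent of each class called higher (red) or lower (blue) in KO. The 2 classes above 400 bases and the class with no internal exon have positive medians and more rises than falls.

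Among genes that met the naming conditions given in the processing section, the single largest rises came from genes that were close to silent in WT. These conditions leave out genes that overlap another on the opposite strand, so larger fitted differences exist outside them. Scara5, a ferritin receptor gene, rose from 1.57 and 1.32 CPM to 37.6 and 33.4 CPM (4.61 ± 0.13), Cd44, the hyaluronan receptor gene, from 0.738 and 0.441 CPM to 13.1 and 13.2 CPM (4.46 ± 0.20), and Lrrn2, a leucine-rich membrane protein gene, from 1.75 and 1.79 CPM to 29.2 and 33.8 CPM (4.15 ± 0.13). Tshz1, a homeobox zinc finger gene, rose from 0.295 and 0.717 CPM to 16.7 and 17.4 CPM (5.10 ± 0.21, or 5.83 without WT replicate 2). Fbxl7, an F-box gene of ubiquitin ligases, stood at 0.0492 and 0.248 CPM in WT and 5.26 and 5.04 CPM in KO (5.13 ± 0.31, but 4.36 without WT replicate 1 and 6.61 without WT replicate 2). The other large rises were Tmem151a (5.71), Syt13 (5.35), Pigz (4.81), Inka1 (4.72) and Cited4 (4.26). In each of these genes both KO libraries stood above both WT libraries, which the rule for naming them required.

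Under the same naming conditions, the 12 largest falls held imprinted noncoding RNAs, X-linked genes, a meiotic gene and others. Smc1b, the meiotic cohesin subunit, fell from 46.0 and 53.4 CPM to 1.08 and 0.922 CPM (-5.63 ± 0.14, adjusted p = 1.9e-11). Xlr3a, a member of an X-linked lymphocyte-regulated family, fell from 37.1 and 34.6 CPM to 0.654 and 0.346 CPM (-6.15 ± 0.17), though its close copies share reads and its own value is uncertain. Samd7, a Polycomb-associated retinal gene, fell from 5.41 and 5.37 CPM to 0.228 and 0.144 CPM (-4.83 ± 0.38), and Tafa4, a secreted protein gene, from 10.5 and 11.4 CPM to 0.370 and 0.346 CPM (-4.92 ± 0.22). Pramel6, of the PRAME-like family, stood at 7.10 and 6.59 CPM in WT and 0.284 and 0.0288 CPM in KO (-5.41 ± 0.48, but -7.72 without KO replicate 1 and -4.57 without KO replicate 2). Xlr3c stood at 10.8 and 9.54 CPM against 0.0569 and 0.490 CPM (-5.20, but -4.36 without KO replicate 1 and -7.39 without KO replicate 2). Usp26 (-6.83), Xlr5a (-6.72) and Pla2g1b (-6.61) also fell. Hymai, an imprinted noncoding RNA, had 706 counts in WT and 0 in KO, at least 214-fold lower when KO is set at 3 counts in all. Mirg and Xlr5b kept 2 and 3 counts in KO and were 392-fold (exact 95% interval 108 to 3240) and 166-fold (56.3 to 805) lower. These intervals cover counting error only. The fitted log2 fold change of Mirg was -8.44, but -11.59 without KO replicate 1 and -7.53 without KO replicate 2.

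**Figure D4:**
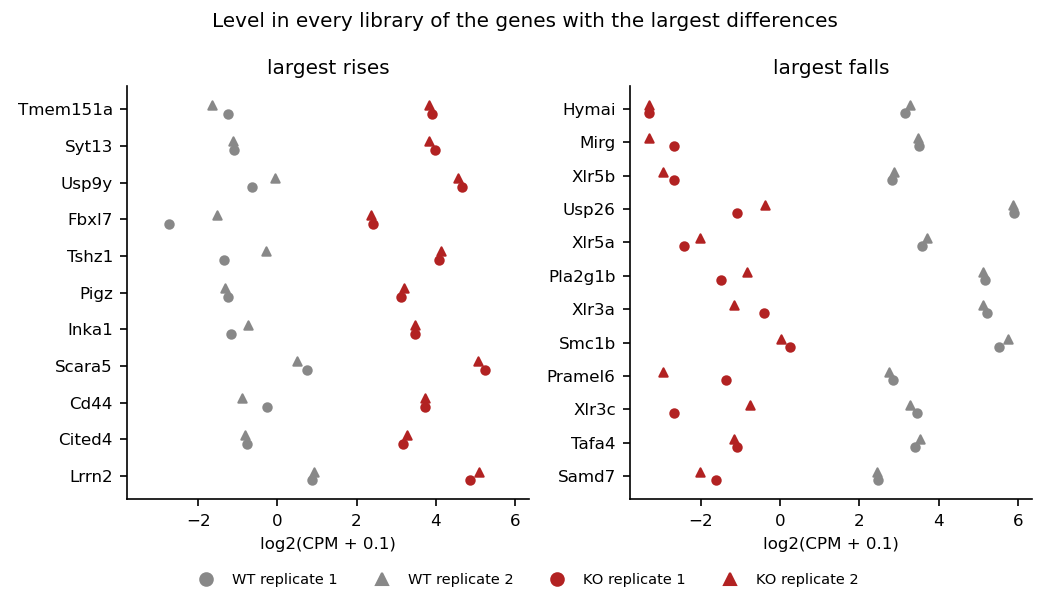
Level in every WT (grey) and KO (red) library of 11 of the 12 genes with the largest rises (left) and the 12 with the largest falls (right) under the naming conditions. Values are on log2 of CPM + 0.1, with circles for replicate 1 and triangles for replicate 2. The groups do not overlap in any of these genes, as their selection required and Pramel6, Mirg and Xlr3c lie apart between the KO libraries.

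Among abundant transcripts, the largest rise in CPM itself was in Rn45s, the ribosomal RNA precursor, whose share of the gene counts was 10.8% and 11.2% in WT but 16.7% and 15.7% in KO. Ribosomal RNA was removed during library preparation, and whether this removal differed between the libraries was not tested. Eef1a1, the elongation factor that delivers transfer RNA to the ribosome, rose from 9915 and 9865 CPM to 12200 and 12920 CPM (0.34 ± 0.06, adjusted p = 0.0002). Tubb5, a beta tubulin, rose from 2032 and 1996 CPM to 2418 and 2549 CPM (0.30 ± 0.06), and Rpl19, a ribosomal protein gene, from 794 and 794 CPM to 1293 and 1267 CPM (0.69 ± 0.09). Under the same conditions, which leave out genes that overlap another on the opposite strand, the 8 largest falls in CPM included the following genes. Hspa8, the constitutive HSP70 chaperone, fell from 1651 and 1634 CPM to 824 and 836 CPM (-0.98 ± 0.06). Hsp90aa1, an HSP90 chaperone, fell from 3253 and 3356 CPM to 2225 and 2111 CPM (-0.61 ± 0.06), and Npm1, the nucleolar phosphoprotein, by 1.06 ± 0.06. Npm1 lies on chromosome 11. Pkm, pyruvate kinase, fell from 2362 and 2399 CPM to 909 and 969 CPM (-1.34 ± 0.07), and Slc2a3, the high-affinity glucose transporter gene, from 1904 and 1902 CPM to 1180 and 1212 CPM (-0.67 ± 0.07).

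Glucose metabolism and low-oxygen response genes fell together: of 42 tested members, 35 fell and 3 rose (1 without WT replicate 1), with a median of -1.17. Outside chromosomes 8 and 11, 30 of 37 fell. Slc16a3, the lactate exporter gene, fell from 177 and 202 CPM to 12.5 and 10.3 CPM (-4.06 ± 0.13, adjusted p = 1.1e-10), and Aldoc, an aldolase gene, from 59.5 and 61.3 CPM to 12.3 and 12.4 CPM (-2.29 ± 0.07). Pgk1, phosphoglycerate kinase, fell from 447 and 473 CPM to 147 and 154 CPM (-1.61 ± 0.07), and Hk2, a hexokinase gene, from 683 and 702 CPM to 265 and 286 CPM (-1.33 ± 0.08). Gapdh itself fell by 0.73 ± 0.07 and Aldoa by 1.29 ± 0.07. The muscle isoform Pfkm went the other way, from 24.7 and 25.1 CPM to 45.8 and 48.1 CPM (0.92 ± 0.07), and overlaps Senp1 on the opposite strand. Hif1a, the oxygen-regulated transcription factor gene, stood at 155 and 162 CPM in WT and 130 and 136 CPM in KO (-0.26 ± 0.07, adjusted p = 0.0048, and 0.076 without WT replicate 2). Car9, a textbook hypoxia target, did not pass (0.893 ± 0.0933 against 1.56 ± 0.318 CPM, adjusted p = 0.21).

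Promoters of this group often hold the letters of the hypoxia response element, bound by HIF factors. Searched over 250 bases before each RefSeq start on both strands, ACGTGC was found in 15 of 37 members with a promoter window (40.5%), against 7.94% of the 12071 tested genes with one. The same letters were found in 10 of 43 germline and meiosis genes (23.3%) and 5 of 28 serine, one-carbon and nucleotide synthesis genes (17.9%). In the remaining lists searched the share was at most 6.9%. Of the 15 glycolysis and hypoxia members, 13 fell and 0 rose (median -1.25), and of the 22 members without these letters, 17 fell and 3 rose (median -0.95). Windows of 4 members that fell are shown so that the match can be read in its sequence context (GRCm38.p6, 5′ to 3′ on the gene's strand, capitals for a match on either strand). They lie on chromosomes 7 (138909560 to 138909665, minus), X (106186918 to 106187023, plus), 7 (46845719 to 46845803, plus) and 11 (120948990 to 120949066, plus), in that order:
Bnip3: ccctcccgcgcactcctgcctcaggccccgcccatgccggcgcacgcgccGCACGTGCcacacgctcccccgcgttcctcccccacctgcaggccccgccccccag
Pgk1: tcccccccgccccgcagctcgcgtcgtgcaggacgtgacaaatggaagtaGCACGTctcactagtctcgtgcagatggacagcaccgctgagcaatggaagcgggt
Ldha: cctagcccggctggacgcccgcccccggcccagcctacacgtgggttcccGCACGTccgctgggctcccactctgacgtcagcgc
Slc16a3: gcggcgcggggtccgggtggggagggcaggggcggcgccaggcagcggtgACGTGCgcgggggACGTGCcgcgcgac
In the Bnip3 window 2 matches on opposite strands overlap, and that run also holds the E-box letters CACGTG. Levels of Bnip3, a mitophagy receptor, were 91.5 and 94.0 CPM in WT and 11.6 and 11.5 CPM in KO, and those of Ldha, lactate dehydrogenase, 503 and 528 CPM in WT and 215 and 218 CPM in KO. A match of letters is a description of the sequence and not a measured binding site.

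The integrated stress response raises amino acid synthesis and transport through the transcription factor ATF4. Of its 38 tested members 34 fell and 3 rose, with a median of -0.86. Outside chromosomes 8 and 11, 27 of 31 fell. The central gene Atf4 fell from 378 and 360 CPM to 130 and 127 CPM (-1.53 ± 0.07). Trib3, a pseudokinase gene induced by ATF4, fell by 1.10 ± 0.07. Chac1, which degrades glutathione, fell from 43.6 and 46.7 CPM to 18.5 and 17.1 CPM (-1.34 ± 0.08), and Asns, asparagine synthetase, from 880 and 865 CPM to 536 and 563 CPM (-0.67 ± 0.06). Slc7a11, the cystine importer gene, fell from 3.64 and 3.86 CPM to 1.51 and 1.24 CPM (-1.45 ± 0.22), and Wars, the tryptophanyl transfer RNA synthetase gene, from 110 and 108 CPM to 42.6 and 46.3 CPM (-1.29 ± 0.07). Stc2, a secreted glycoprotein gene, had the largest fall, from 21.8 and 24.6 CPM to 1.36 and 1.61 CPM (-3.96 ± 0.14). The 3 that rose were Cth, cystathionine gamma-lyase (0.85 ± 0.07), Cebpb (1.46 ± 0.24) and Atf5 (1.60 ± 0.11). The last 2 overlap other genes on the opposite strand.

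The C/EBP-ATF response element, read here as TGATGNAA on either strand, was found in 9 of 29 members with a promoter window (31.0%), against 2.50% of all tested genes with one. All 9 fell (median -1.34), and of the 20 without it 17 fell and 2 rose (median -0.76). These 2 motifs were among 12 searched over 7 lists, and no test was made. Both lists were drawn up around the responses that these elements serve, so their shares are not independent of the choice of members. Windows of 4 members that fell are shown as above, on chromosomes 2 (119350999 to 119351106, plus), 6 (7693210 to 7693282, minus), 3 (50443622 to 50443729, minus) and 7 (126625523 to 126625630, minus):
Chac1: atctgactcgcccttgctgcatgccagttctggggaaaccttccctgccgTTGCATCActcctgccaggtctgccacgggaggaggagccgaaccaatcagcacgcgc
Asns: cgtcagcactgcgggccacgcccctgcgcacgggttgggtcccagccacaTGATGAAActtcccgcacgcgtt
Slc7a11: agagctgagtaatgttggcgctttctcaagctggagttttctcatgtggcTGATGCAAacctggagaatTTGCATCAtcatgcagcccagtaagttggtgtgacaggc
Nupr1: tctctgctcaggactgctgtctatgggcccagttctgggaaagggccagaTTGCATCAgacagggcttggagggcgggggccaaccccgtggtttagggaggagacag
The match begins 23 bases before the start of Asns, 66 before that of Slc7a11, 110 before that of Nupr1 and 193 before that of Chac1. Nupr1, a stress-induced chromatin protein gene, fell from 59.0 ± 6.40 CPM to 19.7 ± 0.749 CPM (-1.58 ± 0.09).

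Several other growth-related groups also held more falls than rises. In serine, one-carbon and nucleotide synthesis 21 of 32 fell and 4 rose (median -0.50), among them Mthfd1l, a mitochondrial folate enzyme gene, from 138 and 135 CPM to 72.7 and 72.6 CPM (-0.91 ± 0.06). Umps, of pyrimidine synthesis, rose from 138 and 136 CPM to 246 and 262 CPM (0.89 ± 0.06). Of 45 translation factors 28 fell and 7 rose (median -0.30), or 4 and 3 rose without WT replicate 1 and without WT replicate 2. Eif5, which triggers GTP hydrolysis at the start codon, fell from 242 and 249 CPM to 107 and 107 CPM (-1.19 ± 0.06). Among 36 proteasome subunits there were 28 falls and 2 rises (median -0.52), and outside chromosomes 8 and 11 there were 22 falls among 28. Psmc4, an ATPase of the regulatory particle, fell from 125 and 110 CPM to 61.8 and 62.5 CPM (-0.92 ± 0.07), whereas Psmd5 and Psmd7 rose by 0.43 and 0.35. Among 62 ribosome biogenesis factors 34 fell and 11 rose (median -0.23), but outside chromosomes 8 and 11 the count was 24 of 50 with a median of -0.12. Polr1b, a core subunit of RNA polymerase I, rose from 111 and 100 CPM to 380 and 405 CPM (1.89 ± 0.08). Ribosomal protein genes held more rises than falls. Of 83 cytosolic ones 30 rose and 13 fell (median 0.1), with 20 to 43 rises over the alternatives. Their share of rises (36.1%) was near that of all tested genes (33.6%), that of falls was 15.7% against 32.6%, and 40 did not pass. Of 76 mitochondrial ones 35 rose (46.1%) and 21 fell (27.6%, median 0.08), with 23 to 36 rises over the alternatives. Respiratory chain subunits also held more rises, with 31 of 67 higher (20 without WT replicate 1) and 14 lower (median 0.13). Cox6b1 of complex IV rose from 107 and 110 CPM to 177 and 181 CPM. Tricarboxylic acid cycle genes split, with 9 higher and 12 lower of 29. Fh1, fumarase, fell from 115 and 120 CPM to 46.0 and 43.3 CPM (-1.40 ± 0.06), and Idh2, mitochondrial isocitrate dehydrogenase, rose from 106 and 107 CPM to 225 and 224 CPM (1.07 ± 0.06).

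**Figure D5:**
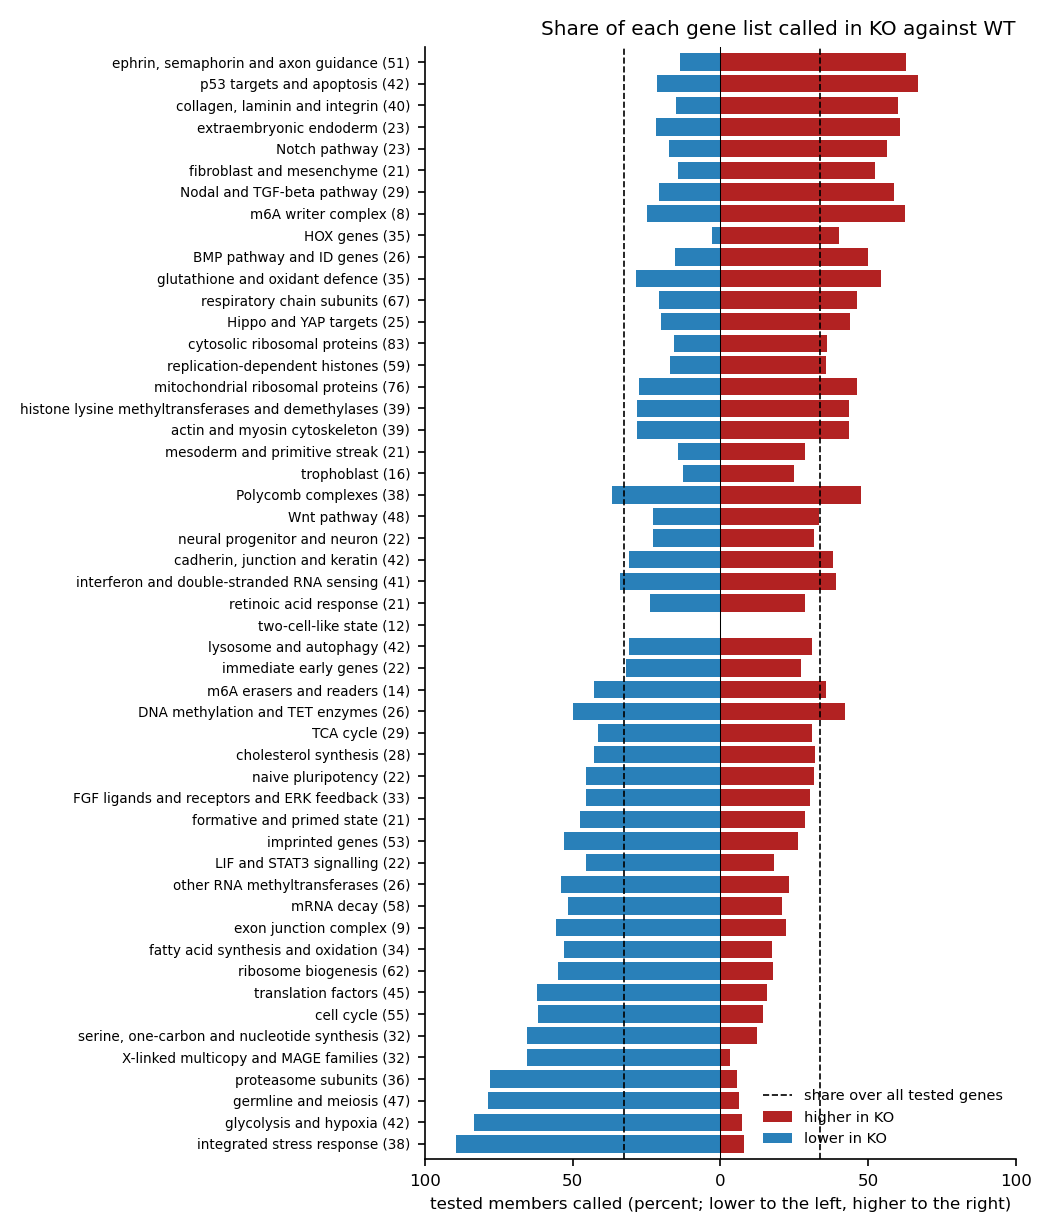
Percent of tested members called higher (red, right) or lower (blue, left) in KO in each gene list of 8 or more tested members, with the number tested in parentheses and dashed lines at the shares over all tested genes (33.6% and 32.6%). Stress response, glycolysis, germline and proteasome lists lie furthest to the left, and p53, axon guidance, m6A writer, extraembryonic endoderm and matrix lists to the right.

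Of 55 cell cycle genes 34 fell and 8 rose (median -0.35), and outside chromosomes 8 and 11 they fell in 27 of 48. Mcm2 and Mcm5, subunits of the replicative helicase, fell from 608 and 589 CPM to 252 and 264 CPM (-1.21 ± 0.07) and from 488 and 476 CPM to 217 and 228 CPM (-1.11 ± 0.07). Inhibitors and regulators of the cycle were among those that rose. Cdkn1a, which encodes the inhibitor p21, rose from 164 and 157 CPM to 367 and 385 CPM (1.23 ± 0.07), and Cdc25b, a phosphatase that activates cyclin-dependent kinases, from 26.5 and 25.7 CPM to 75.4 and 74.9 CPM (1.52 ± 0.07). Among D-type cyclins, Ccnd2 rose from 1.40 and 1.57 CPM to 5.89 and 6.54 CPM (2.06 ± 0.21) and Ccnd1 fell from 195 and 192 CPM to 135 and 148 CPM (-0.45 ± 0.08). Of 42 p53 targets and apoptosis genes 28 rose and 9 fell (median 0.53). Casp8, the initiator caspase of death receptors, rose from 3.64 and 2.89 CPM to 22.6 and 25.4 CPM (2.87 ± 0.12), and Bcl2l1, an inhibitor of apoptosis, from 35.7 and 33.5 CPM to 87.6 and 87.7 CPM (1.34 ± 0.06). Mdm2, which degrades p53, rose by 0.49 ± 0.06. Trp53 itself fell from 364 and 362 CPM to 176 and 185 CPM (-1.01 ± 0.07) and lies on chromosome 11, and Casp9, the initiator caspase of the mitochondrial route, fell by 1.37 ± 0.07.

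Among messenger RNA decay factors, which include the machinery that m6A readers recruit, 30 of 58 fell and 12 rose (median -0.22). Outside chromosomes 8 and 11 the count was 20 of 45, with a median of -0.14. Cnot1, the scaffold of the CCR4-NOT deadenylase, fell from 1636 and 1612 CPM to 647 and 685 CPM (-1.29 ± 0.08). It lies on chromosome 8. The antiproliferative genes Btg1 and Tob1, which bring the deadenylase to transcripts, rose from 40.0 and 42.8 CPM to 99.1 and 96.1 CPM (1.24 ± 0.06) and from 66.4 and 66.3 CPM to 127 and 125 CPM (0.93 ± 0.06). Exon junction complex genes, which shape where m6A can be written, held 2 rises and 5 falls among 9 tested, or 1 rise without KO replicate 2, without WT replicate 1 or without WT replicate 2. Eif4a3, its RNA-clamping helicase, fell from 167 and 165 CPM to 90.9 and 99.2 CPM (-0.80 ± 0.06) and lies on chromosome 11.

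Developmental signalling genes rose more often than they fell in the Nodal, BMP and Notch pathways. For Nodal and TGF-beta, 17 of 29 rose and 6 fell (median 0.30), and no member lies on chromosomes 8 or 11. The ligand gene Nodal rose from 37.1 and 34.0 CPM to 74.6 and 72.9 CPM (1.05 ± 0.07). Its secreted antagonists rose as well, Lefty1 from 1.97 and 1.76 CPM to 22.7 and 20.3 CPM (3.52 ± 0.14) and Lefty2 from 24.2 and 22.5 CPM to 43.3 and 39.4 CPM (0.82 ± 0.09). The receptors Tgfbr3, a co-receptor, and Acvr2a rose from 6.24 and 6.01 CPM to 44.1 and 49.1 CPM (2.93 ± 0.09) and from 18.3 and 17.6 CPM to 38.7 and 43.6 CPM (1.20 ± 0.08). Inhibitors inside the cell also rose, Smad7 from 89.4 and 92.6 CPM to 233 and 215 CPM (1.30 ± 0.07) and Ski by 1.07 ± 0.07. Tgfb1, another ligand gene, fell from 9.44 and 7.55 CPM to 4.09 and 3.63 CPM (-1.14 ± 0.16). In the BMP pathway 13 of 26 rose and 4 fell (median 0.29), or 8 rose without WT replicate 2. Bmp7 rose from 19.3 and 17.6 CPM to 84.5 and 84.6 CPM (2.19 ± 0.07), the pseudoreceptor Bambi from 7.35 and 7.58 CPM to 40.0 and 35.7 CPM (2.34 ± 0.09), and the homeobox target Msx2 from 0.811 and 0.689 CPM to 10.2 and 10.8 CPM (3.80 ± 0.18). Smad9, a BMP effector, fell from 14.7 and 16.1 CPM to 1.56 and 1.79 CPM (-3.20 ± 0.16). The ID genes, direct BMP targets, split: Id2 and Id4 rose by 1.58 and 2.16, and Id1 (-2.05) and Id3 (-0.71) fell.

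In the Notch pathway 13 of 23 rose and 4 fell (median 0.42). The receptor genes Notch1 and Notch2 rose from 87.3 and 88.5 CPM to 212 and 206 CPM (1.25 ± 0.08) and from 89.3 and 94.0 CPM to 277 and 290 CPM (1.63 ± 0.08). Psen2, a catalytic subunit of the protease that releases the Notch intracellular domain, rose from 7.52 and 7.11 CPM to 28.4 and 28.5 CPM (1.96 ± 0.09), and the target Hes1 from 53.2 and 52.4 CPM to 85.5 and 76.9 CPM (0.62 ± 0.07). The ligand gene Jag1 did not pass (20.5 ± 2.61 against 21.8 ± 1.96 CPM, adjusted p = 0.51). The coactivators diverged, with Maml1 higher by 1.22 ± 0.07 and Maml2 lower, from 8.68 and 10.1 CPM to 0.853 and 0.375 CPM (-3.92 ± 0.28, or -4.63 without KO replicate 1). Of 48 Wnt pathway genes 16 rose and 11 fell (median 0.19), and outside chromosomes 8 and 11 there were 14 rises and 6 falls among 38. Wls, which carries Wnt ligands to the surface, rose from 6.91 and 6.04 CPM to 29.6 and 30.6 CPM (2.21 ± 0.09), and the secreted antagonist Sfrp1 from 49.5 and 51.4 CPM to 152 and 153 CPM (1.60 ± 0.06). Of the nuclear and feedback targets, Lef1 fell from 4.77 and 3.91 CPM to 0.597 and 0.692 CPM (-2.75 ± 0.20), Axin2 fell by 0.82 ± 0.08 and Sp5 rose by 1.95 ± 0.11.

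FGF, ERK and LIF pathway genes were counted next. Of 33 FGF and ERK genes 15 fell and 10 rose (median -0.48, or -0.25 outside chromosomes 8 and 11). The ligand gene Fgf4 rose from 227 and 225 CPM to 356 and 347 CPM (0.64 ± 0.07) and its receptor gene Fgfr1 from 86.9 and 84.9 CPM to 145 and 148 CPM (0.77 ± 0.06). Feedback inhibitors of the pathway fell, Spry2 from 35.1 and 36.4 CPM to 9.13 and 10.3 CPM (-1.88 ± 0.08) and Dusp6, an ERK phosphatase gene, from 7.20 and 6.48 CPM to 0.768 and 1.67 CPM (-2.49 ± 0.26, or -3.15 without KO replicate 2). Dusp7, another ERK phosphatase gene, rose from 20.7 and 21.6 CPM to 65.2 and 60.9 CPM (1.58 ± 0.07), and so did the co-receptors Sdc4 and Gpc4, by 1.43 and 1.11. In LIF and STAT3 signalling, which sustains self-renewal, 10 of 22 fell and 4 rose (median 0.03). Without genes that overlap another on the opposite strand the direction turned, with 5 higher and 2 lower, and outside chromosomes 8 and 11 there were 7 falls and 3 rises among 16. The receptor gene Lifr stood at 183 and 189 CPM in WT and 200 and 208 CPM in KO (adjusted p = 0.10), and the feedback gene Socs3 at 128 and 135 against 140 and 131 CPM (adjusted p = 0.59). Stat3 fell from 250 and 252 CPM to 144 and 159 CPM (-0.73 ± 0.07) and lies on chromosome 11, where it overlaps Stat5a on the opposite strand. Socs2 fell from 47.9 and 47.6 CPM to 11.9 and 9.36 CPM (-2.17 ± 0.10), while the kinase gene Jak2 rose from 12.2 and 14.1 CPM to 29.2 and 30.7 CPM (1.19 ± 0.09).

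Genes of the cell surface and matrix held more rises than falls. Of 40 collagen, laminin and integrin genes 24 rose and 6 fell (median 0.80). Lama4 and Lama5, laminin chains of basement membranes, rose from 2.43 and 1.98 CPM to 21.5 and 22.2 CPM (3.30 ± 0.14) and from 176 and 171 CPM to 559 and 539 CPM (1.66 ± 0.07). The integrin genes Itgb5 and Itgav, whose products pair as a receptor for RGD ligands, rose from 16.6 and 17.1 CPM to 100 and 102 CPM (2.58 ± 0.07) and from 61.8 and 63.4 CPM to 161 and 168 CPM (1.40 ± 0.06). Itgb1, the most widely shared integrin subunit, did not pass (adjusted p = 0.48). Fibronectin, Fn1, stood at 1752 and 1791 CPM in WT and 1982 and 1973 CPM in KO (adjusted p = 0.13). Of 51 ephrin, semaphorin and axon guidance genes 32 rose and 7 fell (median 0.73). Efnb1, an ephrin ligand gene, rose from 3.25 and 2.26 CPM to 42.8 and 45.0 CPM (3.98 ± 0.14), and its receptor gene Ephb2 from 17.1 and 15.8 CPM to 49.9 and 50.4 CPM (1.60 ± 0.08). Slit3, a repulsive ligand gene, rose from 6.88 and 8.10 CPM to 36.1 and 33.7 CPM (2.22 ± 0.11), and the semaphorin receptor gene Plxna1 by 0.56 ± 0.07. Epha4, an ephrin receptor gene, fell from 166 and 162 CPM to 48.6 and 44.6 CPM (-1.82 ± 0.08).

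Adhesion genes of epithelia did not share a direction, with 16 of 42 higher and 13 lower. E-cadherin, Cdh1, stood at 1035 ± 7.80 CPM and 958 ± 6.82 CPM (adjusted p = 0.19). The desmosomal gene Pkp2 fell from 69.3 and 70.8 CPM to 8.42 and 9.71 CPM (-2.95 ± 0.08), and Cldn4, a tight junction gene, rose from 44.7 and 46.3 CPM to 124 and 132 CPM (1.49 ± 0.06). Of the genes listed for fibroblasts and mesenchyme 11 of 21 rose and 3 fell, with a median of 1.39. Mmp2, a matrix protease gene, rose from 11.8 and 10.3 CPM to 57.8 and 63.0 CPM (2.45 ± 0.13), and Fbn1, a microfibril gene, from 6.88 and 5.29 CPM to 48.7 and 46.4 CPM (2.96 ± 0.12). Vim, the intermediate filament gene of mesenchyme, fell from 141 and 142 CPM to 42.6 and 46.8 CPM (-1.66 ± 0.07). The summed fibroblast markers given above do not include these 3 genes. Snai1, a repressor of epithelial genes, rose from 0.713 and 0.551 CPM to 9.01 and 8.01 CPM (3.74 ± 0.21).

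Of 47 germline and meiosis genes 37 fell and 3 rose (median -1.39), and outside chromosomes 8 and 11 the falls were 28 of 37. Tex14, needed for germ cell bridges, fell from 114 and 121 CPM to 17.8 and 14.9 CPM (-2.85 ± 0.08), Tex15 from 44.2 and 44.8 CPM to 8.02 and 8.50 CPM (-2.43 ± 0.08) and Sohlh2, a germ cell transcription factor gene, from 124 and 126 CPM to 19.5 and 21.7 CPM (-2.60 ± 0.09). The piRNA pathway genes Mael (-2.21) and Piwil2 (-1.22) and Sycp3, of the synaptonemal complex (-1.27), fell too. The 3 that rose were Rec8 (0.53), Tdrd7 (1.06) and Piwil1 (1.16, a call lost without WT replicate 1 at an adjusted p of 0.053). Of 32 tested X-linked multicopy and MAGE genes 21 fell and 1 rose (0 without KO replicate 1 or without WT replicate 1), with a median of -2.52. Nxf3, an export factor gene, fell from 32.3 and 33.8 CPM to 3.47 and 2.79 CPM (-3.40 ± 0.12). Members of these families are near-identical, so single values are uncertain and members do not count as independent. Of the 12 tested genes of the 2-cell-like state, edgeR called 0, with 0 at an unadjusted p below 0.05, and DESeq2 and limma-voom called 0 and 0, but 2 were called lower without KO replicate 2 and 2 higher without WT replicate 2.

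Chromatin regulators changed within complexes. Of 38 Polycomb genes 18 rose and 14 fell (median 0.19), but 11 rose and 12 fell without WT replicate 1 and 12 did each without WT replicate 2. Outside chromosomes 8 and 11 there were 15 rises and 12 falls among 31. The core of PRC2, which methylates histone H3 lysine 27, fell: Ezh2, its enzyme, from 251 and 247 CPM to 93.0 and 96.5 CPM (-1.40 ± 0.06), Suz12 from 580 and 596 CPM to 238 and 242 CPM (-1.29 ± 0.06) and Eed from 110 and 108 CPM to 84.2 and 79.0 CPM (-0.42 ± 0.06). Each overlaps a gene on the opposite strand, and without such genes 6 of the Polycomb list fell. Epop, a PRC2 accessory gene on chromosome 11, rose from 170 and 172 CPM to 699 and 642 CPM (1.97 ± 0.07). In PRC1, Cbx7 fell by 1.25 ± 0.07, Pcgf1 by 1.54 ± 0.10, and Phc2 rose by 1.21 ± 0.07. Among histone lysine methyltransferase and demethylase genes 17 of 39 rose (11 without WT replicate 1) and 11 fell. Phf8, an X-linked demethylase gene, fell from 300 and 286 CPM to 44.4 and 49.2 CPM (-2.65 ± 0.09), and Ehmt2, which writes H3 lysine 9 dimethylation, rose from 117 and 119 CPM to 209 and 212 CPM (0.84 ± 0.06). Genes of DNA methylation and its removal split, with 11 higher and 13 lower of 26 (11 and 10 without WT replicate 1). Dnmt1, the maintenance enzyme gene, fell from 475 and 487 CPM to 326 and 335 CPM (-0.54 ± 0.07), and Mbd3, of the NuRD complex, rose by 0.70 ± 0.07. Of 53 imprinted genes 28 fell and 14 rose (median -0.36). Sfmbt2, a paternally expressed Polycomb-type gene, fell from 97.8 and 99.7 CPM to 14.4 and 14.7 CPM (-2.76 ± 0.07), and the growth regulators Igf2 and Cdkn1c rose from 0.197 and 0.358 CPM to 6.03 and 7.20 CPM (4.58 ± 0.29) and from 1.11 and 0.854 CPM to 7.65 and 7.49 CPM (2.94 ± 0.21).

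Lineage and innate immune genes were counted last. Of 23 genes listed for extraembryonic endoderm 14 rose and 5 fell, although the summed level of its 6 defining markers was lower in KO, as given above. Apoe, a lipid carrier gene in this list, rose from 148 and 150 CPM to 338 and 304 CPM (1.10 ± 0.07), and Lrp2, an endocytic receptor gene, fell by 1.85 ± 0.10. Neural genes held 7 rises and 5 falls among 22 tested (median 0.49), or 4 rises and 4 falls without KO replicate 2 or without WT replicate 2. Outside chromosomes 8 and 11 there were 7 rises and 2 falls among 18 (median 1.1). Stmn2 and Mapt, microtubule-binding genes of neurons, fell (-1.02 and -1.54), whereas Ncam1, a cell adhesion gene, rose from 35.4 and 37.4 CPM to 124 and 124 CPM (1.77 ± 0.06). Of 21 tested mesoderm and primitive streak genes 6 rose and 3 fell (median 0.23, or -0.19 outside chromosomes 8 and 11). The primitive streak gene T fell from 4.89 and 3.36 CPM to 0.228 and 0.0864 CPM (-4.68 ± 0.50, or -5.52 without KO replicate 1). HOX genes held 14 rises and 1 fall among 35, most at low levels, and the count of rises was 20 without KO replicate 1, 7 without KO replicate 2 and 6 without either WT replicate. Of 41 genes of interferon response and double-stranded RNA sensing 16 rose and 14 fell. Mavs, the adaptor of RNA sensors, rose from 49.7 and 52.8 CPM to 134 and 138 CPM (1.41 ± 0.06), and B2m, the light chain of MHC class I, from 16.2 and 16.2 CPM to 52.7 and 51.6 CPM (1.69 ± 0.07). Oas1g, an oligoadenylate synthetase gene with close copies, fell from 12.5 and 14.3 CPM to 1.96 and 2.33 CPM (-2.64 ± 0.16), and Cgas, the DNA sensor gene, also fell (-1.16 ± 0.15).

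The D395A line was set against KO only for the 24 genes with the largest rises and falls under the naming conditions. Of these 24, 20 differed between the lines (edgeR, adjusted p below 0.05), against 50.4% of all tested genes. The 24 genes were chosen for extreme values in the same KO libraries, so nothing is read from their count. Usp9y was lower in D395A than in KO, with a log2 difference (D395A minus KO) of -3.73. Smc1b, Usp26, Xlr5b and Xlr3c were the 4 genes whose difference did not pass (adjusted p of 0.32, 0.24, 0.096 and 0.64).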

How the data were processed

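RNA-seq libraries from rRNA-depleted total RNA (a kit that keeps strand) were used as the raw gene counts that the authors deposited, 1 table per library. Per the submitters' processing notes, Trimmomatic 0.36, STAR 2.7, HTSeq 0.11.2 and the mm10 genome were used. For the strand setting and the annotation, the sources used here give nothing. The summary lines of HTSeq, 29.0% to 37.6% of all counts in WT and KO, were left out. The test was edgeR's quasi-likelihood F test (edgeR 4.0.16, R 4.3.3, filterByExpr, TMM, all 6 libraries in 1 model, Benjamini-Hochberg adjustment over all tested genes, threshold 0.05). This leaves 3 residual degrees of freedom, and the spread behind each p-value is that between these libraries alone and may be technical. WT and KO libraries held 35613626 to 40476809 gene counts. The test was checked on simulated data. Gene models came from GENCODE M21, in which 97.89% of symbols were found, and promoter sequences from RefSeq (GRCm38.p6).

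Members and the 51 gene lists were chosen with earlier results of these data known, so no list was tested as a set. Named genes were the m6A machinery, the 12 largest log2 rises and falls and the 8 largest in CPM (higher group at 5 CPM or more, its libraries within 2-fold of each other, groups not overlapping, no opposite-strand exon overlap known, no Gm, Rik or similar symbol), up to 6 called members per list by smallest p, and members whose role was needed. Of the 12 rises, 1 is not reported here. Neighbours of Mettl3 and Y-linked genes were chosen after their values were seen. Hymai, Tafa4 and Rn45s were not found in the annotation, so their overlap was not checked.

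Alternatives were DESeq2 1.42.0, limma-voom (limma 3.58.1), other scalings and filters, a robust fit, a replicate block, fewer genes and each library left out.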

Additional observations from a re-analysis of the deposited data

How the results depend on the processing

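Counts of changed genes kept within 1.5-fold of their values under each alternative, between 7411 (without genes that overlap another on the opposite strand) and 10769 (only WT and KO libraries), and from 8523 to 9675 with 1 library left out. Those changed at least 2-fold numbered 2852 to 4060. A replicate block gave 10220 changed and 3670 at least 2-fold. Same-numbered WT and KO libraries had deviations from their group means correlated at 0.014. The value was 0.01 for WT and D395A and -0.21 for KO and D395A. Each group gives a single difference between its 2 libraries, so these values cannot tell whether the replicate numbers pair the samples.

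Medians moved by more than their small spread between libraries. With scaling without chromosomes 8, 11 and Y, chromosomes 8 and 11 stood at -0.53 and -0.47, and the exon classes none, under 200, 200 to 400, 400 to 1000 and over 1000 bases at 0.25, -0.13, -0.09, 0.12 and 0.20. Without a low-count filter, chromosome 8 stood at -0.47 and the classes at 0.32, -0.06, -0.03, 0.19 and 0.26. With the stricter filter chromosome 8 stood at -0.47 and the upper 3 classes at -0.04, 0.16 and 0.24. With only WT and KO libraries chromosome 8 stood at -0.47, the class with no internal exon at 0.28 and that of 400 to 1000 bases at 0.17. By the longest exon of any kind the 4 classes stood at -0.24, -0.18, -0.02 (reversed) and 0.08. Without chromosomes 8 and 11, an alternative chosen after seeing the data, the 5 classes stood at 0.34, -0.01, 0.03 (reversed), 0.23 and 0.30. Without overlapping genes in the same fit, also added later, the first and last stood at 0.29 and 0.24. With 1 library left out, chromosome 8 ranged from -0.48 to -0.45, chromosome 11 from -0.43 to -0.41, and the classes ranged from 0.28 to 0.33 (none), -0.08 to -0.07 (under 200), -0.04 to -0.03 (200 to 400), 0.17 to 0.19 (400 to 1000) and 0.24 to 0.26 (over 1000). The cause of these shifts was not tested.

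Counts of list members over the alternatives moved by over 1.5-fold in 76 cases and did not in 1556. Rpgrip1 reversed without KO replicate 1 (-0.69) and passed without KO replicate 2 (1.76). Cdh1 (-0.16 and -0.09), Fn1 (0.17 and 0.18) and Lifr (0.15 and 0.16), which did not pass, each passed under 2 alternatives. Eef2, among the largest rises in CPM, was lost under 5 (adjusted p of 0.061 to 0.14). The differences between D395A and KO passed for 17 to 20 of the 24 genes.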
